A study of Mus musculus with 6 samples.

Results

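Glycolysis splits glucose into pyruvate in the cytosol, lactate dehydrogenase turns pyruvate into lactate, and monocarboxylate carriers move lactate across the plasma membrane. The pentose phosphate pathway branches off after hexokinase and makes NADPH and ribose phosphate, and glycogen enzymes store and release glucose units. Activated macrophages are known for strong glycolysis, and several of these genes are known targets of hypoxia-inducible factors.

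The genes described here are 37 genes of glucose uptake, glycolysis, lactate formation and transport, the pentose phosphate pathway and glycogen metabolism, chosen by name from the 55421 genes of a deposited count table. The names stand on 38 rows, because Aldoa is the symbol of 2 Ensembl identifiers. The second of these, ENSMUSG00000114515, held 2 to 12 counts per library and was too low to test, so that each of the 37 symbols had 1 tested row. The cells were wild-type mouse macrophages grown from bone marrow in RPMI-1640 with serum and the growth factor M-CSF. The treated group (CM) held 3 wells cultured for 24 h in a 50% mix of it with conditioned medium of the mouse Lewis lung carcinoma line LL-2, and the untreated group held 3 wells cultured in the unmixed medium. Conditioned medium of a control cell line was not analysed here, so products of the tumour cells and the smaller share of fresh medium cannot be told apart. Whether each well had its own donor mouse is not in the labels, so the spread behind the p-values may be technical.

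Of the 37 genes, 14 were higher and 5 lower in CM wells by edgeR's quasi-likelihood test at an adjusted p under 0.05, which is 51.4% changed. Over all 13853 tested genes 27.9% changed, 12.6% higher and 15.2% lower, against 37.8% higher and 13.5% lower among the 37. Their median log2 fold change was 0.10, beside 0.01 for all tested genes. The balance moved with the scaling. With libraries scaled by their totals alone, 16 of the 37 were higher and 4 lower, and over all tested genes 2656 were higher and 1710 lower, against 1749 higher and 2112 lower under TMM. The count of 5 lower genes was 2 without CM replicate 1 and 3 without untreated replicate 2 or 3. The median of the 37 was 0.23 without untreated replicate 3, 0.17 without both libraries numbered 3, 0.16 without scaling, 0.060 without CM replicate 3 and 0.057 without untreated replicate 1. The median of all tested genes was 0.070 without scaling and 0.0065 to 0.0144 in the others of these settings. The groups did not overlap for 22 of the 37, 16 with CM higher and 6 with CM lower, and for 42.8% of all tested genes, 21.2% with CM higher and 21.6% with CM lower. A change of at least 1.5-fold past the threshold was seen in 5 of the 37, 3 higher and 2 lower, and in 10.1% of all tested genes, 3.67% higher and 6.45% lower. The 14 rises spanned 1.22-fold to 2.67-fold, and 11 of them were under 1.5-fold. Of the 17 tested genes of glycolysis proper, 8 were higher and 2 lower. No gene was called higher at 3 of its steps: at hexokinase Hk3 was lower and Hk1 and Hk2 did not pass the threshold, and neither aldolase gene nor the pyruvate kinase gene Pkm passed it. Aldoa missed it narrowly, at an adjusted p of 0.0509, and every CM library lay above every untreated one. In these bulk samples a change in the mix of cells and a change in RNA per cell cannot be told apart.

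**Figure D1:**
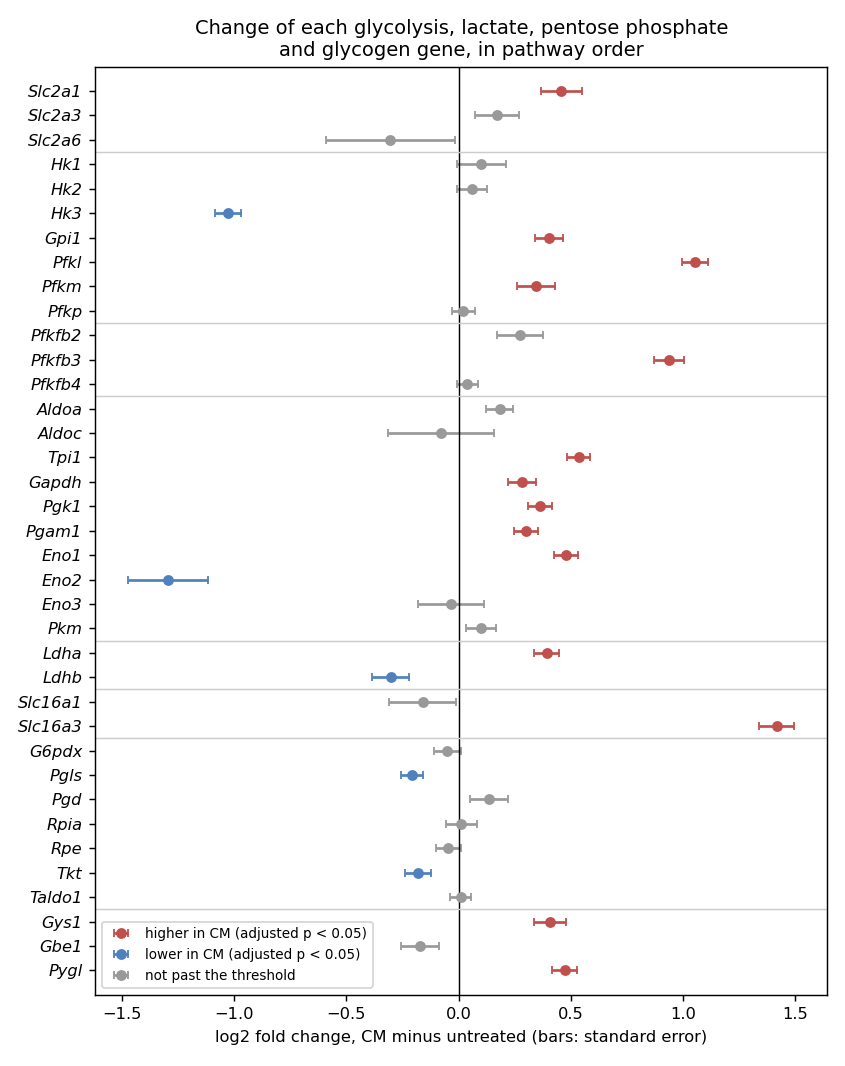
Log2 fold change, CM minus untreated, of each of the 37 genes in pathway order, with standard errors (n = 3 wells per group). Red points were higher and blue points lower at an adjusted p under 0.05. The rightmost point is Slc16a3 at 1.42 and the leftmost is Eno2 at -1.29, while the pentose phosphate genes lie near 0.

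The lactate carrier gene Slc16a3 (ENSMUSG00000025161, chromosome 11, 120948480 to 120960868, plus strand, GRCm38) had the largest rise of the 37. It encodes MCT4, which is known for exporting lactate from strongly glycolytic cells. Its level was 108, 104 and 127 CPM (counts scaled to the library total with TMM factors) in the CM libraries, against 40.02, 42.6 and 44.6 CPM in the untreated libraries. The lowest CM library thus lay far above the highest untreated one, and the log2 fold change was 1.42 (SE 0.08, adjusted p = 2.85e-06). Of its exonic bases, 306 (5.75%) overlap Csnk1d on the other strand, whose own log2 fold change was 0.05 (adjusted p = 0.405). Slc16a1, encoding the carrier MCT1, had 9.51, 9.92 and 6.95 CPM in CM libraries, against 10.5, 10.6 and 8.46 CPM in untreated libraries, and these ranges overlapped (log2 fold change -0.16, SE 0.15, adjusted p = 0.471).

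Pfkl and Pfkfb3, at the committed step of glycolysis, had the next largest rises. Pfkl encodes the liver-type phosphofructokinase (ENSMUSG00000020277, chromosome 10, 77986947 to 78010083, minus strand). It stood at 132, 129 and 144 CPM in CM libraries, against 61.6, 65.3 and 68.5 CPM in untreated libraries. That is a 2.08-fold rise with no overlap (log2 fold change 1.05, SE 0.06, adjusted p = 2.77e-06). Pfkfb3 encodes a bifunctional enzyme that makes the sugar bisphosphate activating phosphofructokinase (ENSMUSG00000026773, chromosome 2, 11471433 to 11554077, minus strand). Its level was 259, 252 and 293 CPM in CM libraries, against 132, 140 and 147 CPM in untreated libraries (1.91-fold, log2 fold change 0.94, SE 0.06, adjusted p = 1.16e-05). Their relatives moved less. The muscle-type phosphofructokinase gene Pfkm rose (log2 fold change 0.34, SE 0.08, adjusted p = 0.0143), with 17.4 ± 1.34 CPM in CM wells, against 13.7 ± 0.943 CPM in untreated wells (SD, n = 3 each). Leaving out untreated replicate 2 ended that call (adjusted p = 0.0613, and 0.00197 to 0.0613 over the 16 alternative settings). The platelet-type gene Pfkp averaged 62.9 ± 3.07 CPM in CM wells and 61.97 ± 2.55 CPM in untreated wells, with an adjusted p of 0.800. Pfkfb4 averaged 67.6 ± 2.59 CPM in CM wells and 65.8 ± 1.78 CPM in untreated wells (adjusted p = 0.578). Pfkfb2 was the scarcest of the trio, at 11.8 ± 0.999 CPM in CM wells and 9.80 ± 0.939 CPM in untreated wells (adjusted p = 0.0789, and 0.0253 with the replicate number as a block).

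Hk3 and Eno2 moved the other way, and each was the only isozyme of its family called lower. Hk3 encodes a hexokinase found mainly in myeloid cells (ENSMUSG00000025877, chromosome 13, 55005985 to 55021385, minus strand). It had 194, 213 and 194 CPM in CM libraries, against 401, 432 and 390 CPM in untreated libraries. The groups lay far apart, a 2.04-fold lower level in CM wells (log2 fold change -1.03, SE 0.06, adjusted p = 2.92e-06). Eno2 encodes the enolase best known from neurons (ENSMUSG00000004267, chromosome 6, 124760053 to 124769673, minus strand). It was scarce throughout, at 5.58, 6.11 and 5.37 CPM in CM libraries, against 13.6, 17.8 and 10.4 CPM in untreated libraries. The untreated libraries were the more scattered, and the log2 fold change was -1.29 (SE 0.18, adjusted p = 0.000632).

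**Figure D2:**
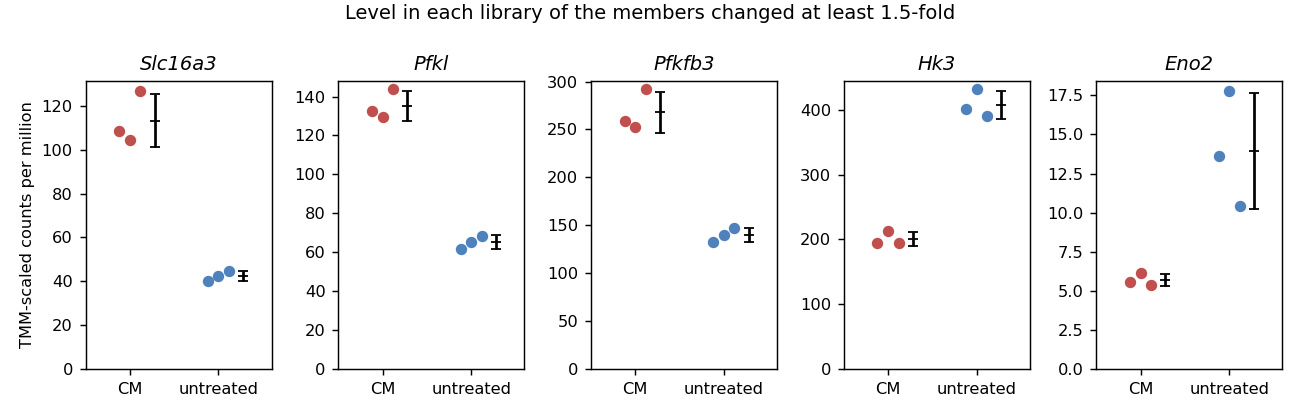
TMM-scaled CPM of the 5 genes changed at least 1.5-fold, 1 point a library, with the mean and SD of each group (n = 3) as a bar beside the points. Slc16a3, Pfkl and Pfkfb3 lie higher in CM wells, Hk3 and Eno2 lower, and in none of the 5 panels do the groups overlap.

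The promoters of these 5 genes are shown so that the same short words can be looked up in the genes that rose and those that fell. Each window runs from 250 bases before to 50 after a RefSeq transcript start (GRCm38.p6) and is written on the gene's own strand. Capitals mark the words ACGTG and GCGTG on either strand, the core of hypoxia-response elements. A CACGTG word, the E-box, holds ACGTG on both strands and so counts as 2 overlapping matches.
Slc16a3, chr11:120948817-120949116, plus strand: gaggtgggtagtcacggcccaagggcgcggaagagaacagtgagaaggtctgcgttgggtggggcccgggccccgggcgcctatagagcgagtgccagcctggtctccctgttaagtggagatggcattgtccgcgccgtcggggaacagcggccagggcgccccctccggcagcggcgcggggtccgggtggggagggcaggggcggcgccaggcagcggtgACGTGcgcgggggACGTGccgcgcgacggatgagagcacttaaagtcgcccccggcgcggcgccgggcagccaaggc
Pfkl, chr10:78009758-78010057, minus strand: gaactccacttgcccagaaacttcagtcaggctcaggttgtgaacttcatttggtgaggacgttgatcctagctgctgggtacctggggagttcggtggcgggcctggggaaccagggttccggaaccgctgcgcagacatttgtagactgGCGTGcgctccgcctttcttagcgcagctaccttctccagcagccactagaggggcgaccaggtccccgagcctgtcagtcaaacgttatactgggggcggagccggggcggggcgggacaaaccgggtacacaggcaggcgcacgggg
Pfkfb3, downstream start, chr2:11502041-11502340, minus strand: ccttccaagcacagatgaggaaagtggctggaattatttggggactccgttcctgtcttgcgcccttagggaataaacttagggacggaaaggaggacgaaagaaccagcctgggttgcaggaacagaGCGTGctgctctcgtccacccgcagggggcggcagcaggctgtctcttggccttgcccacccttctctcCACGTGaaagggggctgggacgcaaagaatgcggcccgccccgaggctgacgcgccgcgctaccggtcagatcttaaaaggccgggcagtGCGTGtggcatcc
Pfkfb3, upstream start, chr2:11553880-11554179, minus strand: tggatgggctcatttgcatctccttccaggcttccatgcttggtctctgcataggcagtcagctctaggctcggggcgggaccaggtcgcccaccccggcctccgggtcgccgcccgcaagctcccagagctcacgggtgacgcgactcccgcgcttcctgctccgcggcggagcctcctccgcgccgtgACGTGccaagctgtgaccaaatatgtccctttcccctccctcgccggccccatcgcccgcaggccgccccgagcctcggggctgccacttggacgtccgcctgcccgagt
Hk3, chr13:55021336-55021635, minus strand: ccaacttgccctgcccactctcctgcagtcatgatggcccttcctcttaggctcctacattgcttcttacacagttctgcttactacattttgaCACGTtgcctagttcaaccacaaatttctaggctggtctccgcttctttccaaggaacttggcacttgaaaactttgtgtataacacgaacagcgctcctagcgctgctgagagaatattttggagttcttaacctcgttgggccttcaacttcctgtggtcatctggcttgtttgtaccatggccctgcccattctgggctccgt
Eno2, chr6:124769624-124769923, minus strand: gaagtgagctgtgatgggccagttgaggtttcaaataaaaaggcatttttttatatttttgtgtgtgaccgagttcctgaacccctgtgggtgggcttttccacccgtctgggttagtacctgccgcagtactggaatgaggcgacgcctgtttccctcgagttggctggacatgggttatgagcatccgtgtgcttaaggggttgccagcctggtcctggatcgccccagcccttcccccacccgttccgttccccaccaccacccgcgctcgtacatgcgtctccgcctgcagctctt
The Slc16a3 window held 2 ACGTG words, which begin 27 and 14 bases before the start site. Pfkl held 1 GCGTG, and the downstream Pfkfb3 window held a CACGTG and 2 GCGTG words. Hk3 held 1 ACGTG on the other strand, and the Eno2 window held neither word. RefSeq windows were found for 36 of the 37 genes, 51 windows in all, and 40 of them (78.4%) held ACGTG or GCGTG, against 43.8% of all 32851 promoter windows. By gene, at least 1 window held a match for 11 of the 14 genes called higher, for 4 of the 5 called lower and for 15 of the other 17. Several windows of 1 gene overlap, base composition differs between promoters, and a match is a run of letters and not a measured site.

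Glucose uptake showed 1 rise among 3 genes (33.3% changed, near the 27.9% of all tested genes). Slc2a1, encoding the glucose carrier GLUT1, had 37.2, 36.4 and 44.1 CPM in CM libraries, against 27.8, 26.1 and 31.8 CPM in untreated libraries. These ranges did not overlap (log2 fold change 0.46, SE 0.09, adjusted p = 0.00533). Slc2a3, encoding the high-affinity carrier GLUT3, averaged 25.4 ± 2.73 CPM in CM wells and 22.5 ± 2.36 CPM in untreated wells (SD, n = 3 each; adjusted p = 0.233). Slc2a6 encodes a lysosomal member of the carrier family. It had 61.6, 57.9 and 117 CPM in CM libraries, against 73.05, 82.9 and 135 CPM in untreated libraries. In each group replicate 3 stood well above the other wells, so the group ranges overlapped (log2 fold change -0.31, SE 0.29, adjusted p = 0.477). With the replicate number as a block Slc2a6 was lower (log2 fold change -0.32, adjusted p = 0.000247), as it was without CM replicate 3 (-0.70, adjusted p = 0.0397). Over the 16 alternatives its adjusted p ran from 0.000247 to 0.983.

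Below hexokinase, Gpi1, Tpi1, Gapdh, Pgk1, Pgam1 and Eno1 were called higher, each by less than 1.5-fold. Gpi1, the glucose phosphate isomerase gene, averaged 594 ± 30.02 CPM in CM wells and 449.9 ± 33.3 CPM in untreated wells (log2 fold change 0.40, adjusted p = 0.00119). The other hexokinases, Hk1 and Hk2, had log2 fold changes of 0.10 (SE 0.11) and 0.06 (SE 0.07) and adjusted p-values of 0.533 and 0.564. Tpi1, encoding triose phosphate isomerase, had 311, 334 and 342 CPM in CM libraries, against 217, 235 and 229 CPM in untreated libraries. The groups lay well apart (log2 fold change 0.53, SE 0.05, adjusted p = 7.76e-05). Eno1, the main enolase gene, had 730.3, 763 and 762 CPM in CM libraries, against 505, 546 and 567 CPM in untreated libraries (log2 fold change 0.48, adjusted p = 0.000166). Pgk1, the phosphoglycerate kinase gene, rose by a log2 fold change of 0.36 (adjusted p = 0.000990), and Pgam1, the mutase gene, by 0.30 (adjusted p = 0.00292). Gapdh, often used as a reference gene, had 1002, 1098 and 1129 CPM in CM libraries, against 821, 891 and 943 CPM in untreated libraries. Every CM library lay above every untreated one (log2 fold change 0.28, SE 0.06, adjusted p = 0.00971).

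Aldoa and Pkm, at opposite ends of lower glycolysis, did not pass the threshold. Aldoa, encoding the main aldolase, had 1024.5, 1071 and 1114 CPM in CM libraries, against 871, 942 and 1012 CPM in untreated libraries. The lowest CM library was barely above the highest untreated one, and the adjusted p was 0.0509 (log2 fold change 0.18, SE 0.06). Aldoa was called higher in several of the 16 alternatives but not in all, with adjusted p-values from 0.00162 (replicate block) to 0.176. Pkm, the pyruvate kinase gene, averaged 1268 ± 91.6 CPM in CM wells and 1184 ± 85.5 CPM in untreated wells (adjusted p = 0.322). Gene counts do not separate its splice forms M1 and M2. Aldoc and Eno3, minor isozyme genes, had log2 fold changes of -0.08 and -0.03 with SEs of 0.24 and 0.15.

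**Figure D3:**
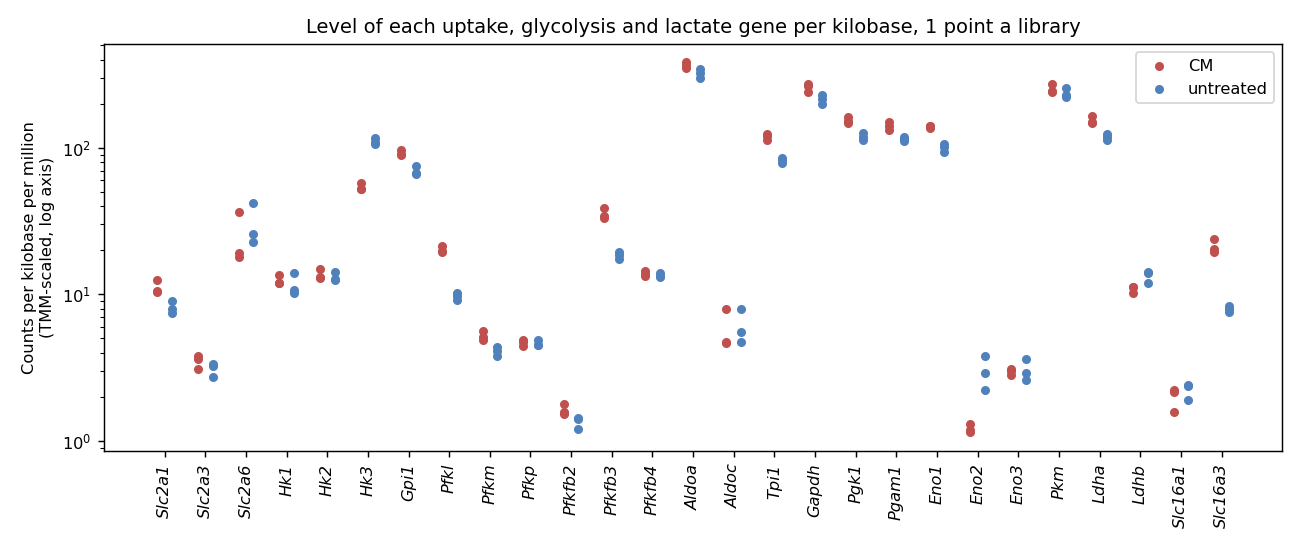
Level of the uptake, glycolysis and lactate genes as TMM-scaled CPM per kilobase on a log axis, 1 point a library, with CM to the left of untreated for each gene. The tallest columns are Aldoa, Gapdh and Pkm, and the shortest belong to Eno2, Pfkfb2 and Slc16a1.

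Per kilobase of exon, Aldoa had the highest level of the 37 genes in both groups, at 367 ± 15.3 CPM per kilobase in CM wells and 324 ± 24.2 in untreated wells. Gapdh followed with 242 to 273 in CM libraries and Pkm with 242 to 275, ranges that overlap. Taldo1 came next at 173 to 185 in CM libraries and Ldha at 149 to 166, which overlaps Pgk1 at 149 to 162. The upper steps were leaner, with summed phosphofructokinase genes at 30.1 ± 1.70 in CM wells and 18.5 ± 0.872 in untreated wells, and the 3 hexokinase genes at 80.4 ± 2.61 in CM wells and 135 ± 4.66 in untreated wells. The exon length counts every annotated exon of a gene, so these levels understate genes with many unused exons.

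Lactate dehydrogenase subunit genes moved apart. Ldha, encoding the subunit abundant in muscle, had 498, 492 and 550 CPM in CM libraries, against 374, 390 and 410 CPM in untreated libraries. The ranges lay apart, and the fitted rise was 0.39 on the log2 scale (SE 0.06, adjusted p = 0.000865). Ldhb, encoding the heart-type subunit, had 17.6, 17.7 and 15.9 CPM in CM libraries, against 21.99, 18.8 and 22.4 CPM in untreated libraries (log2 fold change -0.30, SE 0.08, adjusted p = 0.0242). The Ldhb call was lost without CM replicate 1 (adjusted p = 0.0549), CM replicate 3 (0.0627), untreated replicate 1 (0.0827) or untreated replicate 3 (0.0754), and without both libraries numbered 3 (0.117). Over the 16 alternatives its adjusted p ran from 0.00720 to 0.117.

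Of 7 tested pentose phosphate genes, Pgls and Tkt were lower and the other 5 did not pass the threshold. That is 28.6% changed, near the 27.9% of all tested genes, and whether these genes differed from those of glycolysis was not tested. The range of their log2 fold changes was -0.21 to 0.14. Pgls, encoding the lactonase of the oxidative branch, averaged 73.02 ± 3.06 CPM in CM wells and 84.4 ± 3.12 CPM in untreated wells (SD, n = 3 each; log2 fold change -0.21, adjusted p = 0.0115). The call was lost without CM replicate 1 (adjusted p = 0.0532) or untreated replicate 2 (0.0560), within a range of 0.00112 to 0.0560 over the alternatives. Tkt, the transketolase gene, averaged 369 ± 16.3 CPM in CM wells and 418 ± 28.4 CPM in untreated wells (log2 fold change -0.18, adjusted p = 0.0463). It was lost without scaling beyond the total count (adjusted p = 0.108) and without CM replicate 1 (0.152), CM replicate 2 (0.0890), untreated replicate 2 (0.0926) or untreated replicate 3 (0.110). Over all alternatives it ran from 0.00180 to 0.152. G6pdx, encoding the entry enzyme glucose phosphate dehydrogenase, had 284, 301 and 308 CPM in CM libraries, against 288, 302 and 334 CPM in untreated libraries. These ranges overlapped, with the highest untreated library above every CM library (log2 fold change -0.05, SE 0.06, adjusted p = 0.594). Pgd, the phosphogluconate dehydrogenase gene, had 567, 578 and 652 CPM in CM libraries, against 501, 517 and 616 CPM in untreated libraries (log2 fold change 0.14, adjusted p = 0.268). Replicate 3 was the highest well in each group, and with the replicate number as a block Pgd was called higher (adjusted p = 0.0111, and 0.00679 to 0.596 over the alternatives). Rpia, Rpe and Taldo1, of the non-oxidative branch, had log2 fold changes of 0.01, -0.05 and 0.01 with SEs of 0.07, 0.06 and 0.05.

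Among 3 glycogen genes, Gys1 and Pygl rose (66.7% changed, against 27.9% of all tested genes, 12.6% higher). Gys1, encoding glycogen synthase, had 21.6, 20.9 and 23.4 CPM in CM libraries, against 15.9, 16.1 and 17.6 CPM in untreated libraries (log2 fold change 0.41, SE 0.07, adjusted p = 0.00261). Pygl, encoding the phosphorylase that breaks glycogen down, had 182, 185 and 192 CPM in CM libraries, against 131, 127 and 145 CPM in untreated libraries. The groups lay apart (log2 fold change 0.47, SE 0.06, adjusted p = 0.000248). Gbe1, the branching enzyme gene, averaged 15.9 ± 0.361 CPM in CM wells and 17.9 ± 1.93 CPM in untreated wells (adjusted p = 0.168).

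The make-up of the isozyme families differed between the groups in most shares by more than the spread of the wells, but the design could not bring any share past the threshold. Shares were taken per kilobase within each library, and 18 shares in 8 families were compared by a two-sided exact permutation test, whose smallest possible p with 3 wells against 3 is 0.1. For 15 of the 18 the groups did not overlap, and these shares had that smallest p (adjusted p = 0.12). The shares of a family add up to the whole, so a change in any gene moves its partners' shares, and the 18 are not independent results. Hk1 and Hk2, whose shares were higher in CM wells, had adjusted p-values of 0.533 and 0.564 as genes. Pfkm, whose share was lower, was itself called higher. Hk3 held 67.5 ± 2.49% of hexokinase transcripts in CM wells, against 81.7 ± 2.37% in untreated wells, while Hk1 and Hk2 held 15.5 ± 1.19% and 17.03 ± 1.31% in CM wells, against 8.60 ± 1.59% and 9.71 ± 0.802% in untreated wells. Pfkl held 67.5, 66.98 and 67.1% of phosphofructokinase transcripts in CM libraries, against 51.7, 54.1 and 52.7% in untreated libraries. Pfkfb3 held 69.5 ± 1.98% of its family in CM wells and 55.5 ± 0.823% in untreated wells. Slc16a1 held 8.65 ± 2.18% of the lactate carrier pair in CM wells and 21.8 ± 2.86% in untreated wells. The pair leaves out Slc16a7, a further gene of the same carrier family, so these are not shares of all lactate carriers. Slc16a7 averaged 68.3 CPM in CM wells and 59.98 CPM in untreated wells and was called higher (adjusted p = 0.0173). Not divided by gene length, its level lay above Slc16a1 in both groups and above Slc16a3 in untreated wells only. Ldha made up 93.4 ± 0.716% of dehydrogenase transcripts in CM wells and 89.8 ± 0.902% in untreated wells, and Eno1 97.1 ± 0.0994% of enolase transcripts in CM wells and 94.3 ± 1.22% in untreated wells. With shares taken from CPM not divided by gene length, the groups also lay apart for 15 of 18, but the difference, CM minus untreated, was -1.66 points in place of -4.92 for Pfkm, 1.88 in place of 3.62 for Ldha, -0.27 in place of -0.80 for Eno3, -14.8 in place of -9.46 for Pfkp and 10.5 in place of 6.92 for Hk1. The overlapping shares were those of Aldoa, Slc2a3 and Slc2a6. The last of these had 57.1, 56.3 and 69.9% of the carrier trio in CM libraries, against 67.1, 71.7 and 77.3% in untreated libraries.

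**Figure D4:**
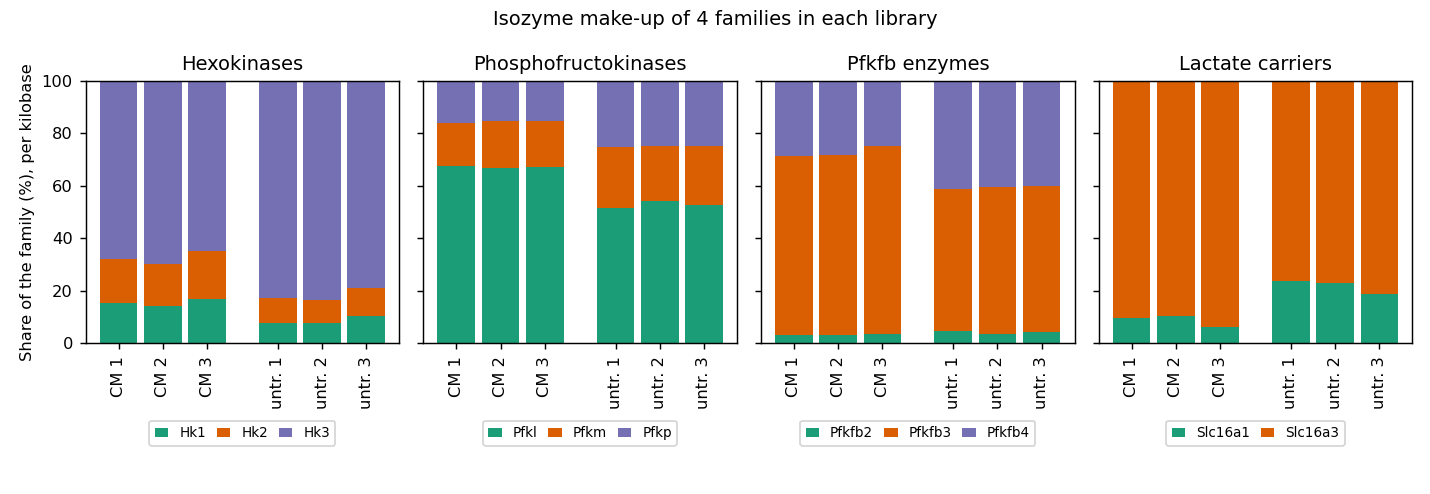
Share of each isozyme in its family, in percent of the summed level per kilobase, as 1 stacked bar a library for 4 families, with the 3 CM libraries left of the 3 untreated ones. Hk3 takes 64.8% to 69.8% of the hexokinase bars in CM libraries and 79.0% to 83.4% in untreated libraries. The lactate carrier bars hold Slc16a1 and Slc16a3 only.

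Some of the spread followed the replicate number that the labels give to both groups. For Slc2a6 the log2 ratio of CM to untreated within a number was -0.25, -0.52 and -0.21. Each of these lies below 0, although the wells of a group differ by more than the groups do. For Aldoa the within-number log2 ratios were 0.23, 0.18 and 0.14, and for Pgd 0.18, 0.16 and 0.08. With that number as a block, Slc2a6, Pfkfb2, Aldoa and Pgd were called as well, so that 17 of the 37 genes were higher and 6 lower, and over all tested genes 36.3% changed. Aldoc, which also stood highest in the wells numbered 3 (26.1 CPM in CM and 25.98 CPM in untreated), was not called. What the numbers stand for is not given in the labels.

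**Figure D5:**
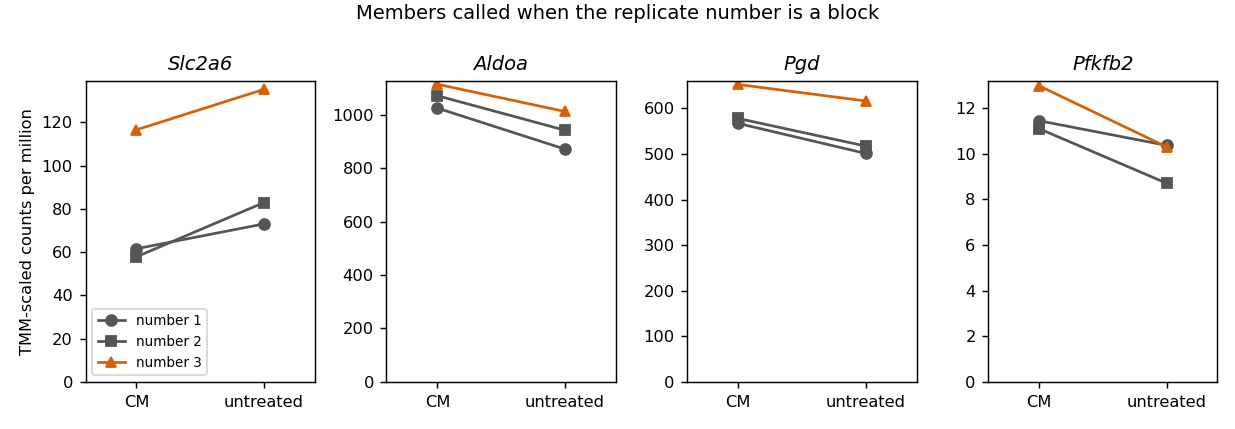
TMM-scaled CPM of the 4 genes called with the replicate number as a block and not without it, CM left of untreated, with lines joining wells of the same number. For Slc2a6 all 3 lines run upward to untreated and the line numbered 3 lies apart, while for the other 3 genes all lines run downward.

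Neighbouring genes of the pathway were counted from lists that do not hold the 37. Of 25 tested other carriers, isozymes and glycogen enzymes, 8 were higher and 3 lower (44.0% changed, against 27.9% of all tested genes), with a median log2 fold change of 0.08. Emb, encoding the membrane chaperone embigin that is known to partner lactate carriers, had 545, 535 and 555 CPM in CM libraries, against 247, 238 and 284 CPM in untreated libraries. This was a 2.13-fold rise (adjusted p = 5.16e-06), whereas Bsg, the gene of the chaperone basigin, averaged 274 CPM in CM wells and 267 CPM in untreated wells (adjusted p = 0.578). Gyg, the glycogenin gene, was lower (log2 fold change -0.35, adjusted p = 0.000255), as was the phosphorylase kinase subunit gene Phka2 (-0.42, adjusted p = 0.00175). Among 14 genes of pyruvate entry into mitochondria, 4 were higher and 10 did not pass the threshold, so that 28.6% changed, near the 27.9% of all tested genes. Those 4 were the pyruvate dehydrogenase kinase genes Pdk1 to Pdk4, whose products are known to switch pyruvate dehydrogenase off. Pdk1 had 54.5, 57.4 and 61.8 CPM in CM libraries, against 30.5, 32.3 and 30.4 CPM in untreated libraries (1.86-fold, adjusted p = 7.88e-06). Pdk2 and Pdk3 rose by log2 fold changes of 0.44 (adjusted p = 0.00837) and 0.41 (adjusted p = 0.0117). Pdk4 was scarce in both groups, at 0.695 CPM in CM wells and 0.177 CPM in untreated wells (adjusted p = 0.0329). Of 3 tested gluconeogenesis genes 1 rose, Slc37a4, encoding the glucose phosphate translocase (log2 fold change 0.23, adjusted p = 0.0379).

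Of 16 tested regulators, 5 were higher and 3 lower (50.0% changed, against 27.9% of all tested genes). Hif1a, encoding the oxygen-regulated subunit of hypoxia-inducible factor, had 253, 256 and 275 CPM in CM libraries, against 97.5, 100.04 and 106 CPM in untreated libraries. That is a 2.58-fold higher transcript level (log2 fold change 1.37, SE 0.05, adjusted p = 4.57e-07). The factor is controlled mainly through protein stability, which was not measured. Txnip, encoding a glucose-responsive inhibitor of glucose uptake, rose by a log2 fold change of 0.63 (adjusted p = 7.85e-06), and Egln1, encoding a prolyl hydroxylase that marks the factor for decay, by 0.47 (adjusted p = 4.96e-05). Whether these regulators bear on the changes above was not tested.

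The libraries held 28447825 to 30040682 counts in CM wells and 24179548 to 25916709 in untreated wells, and the 37 genes took 0.931% to 1.02% of counts in CM libraries and 0.772% to 0.852% in untreated libraries. All 10 macrophage markers were tested, with summed levels of 58838 to 63966 CPM in CM libraries and 51096 to 58794 CPM in untreated libraries. Most of each sum was Lyz2, at 47397.3 to 51638.9 CPM in CM libraries and 41985.1 to 50243.5 CPM in untreated libraries. These Lyz2 ranges overlapped and it was not called (adjusted p = 0.277), so the sums do not show a rise of the markers as a set. Of the 10 markers, 3 rose and 3 fell, led by Cd68 (lower), Itgam (higher) and Adgre1 (lower). Of 10 epithelial markers, Cldn4, Esrp1 and Nkx2-1 had 0 counts in all libraries, and the list summed to 0.773 to 1.498 CPM in CM libraries and 0.827 to 1.31 CPM in untreated libraries. Fibroblast markers summed to 32.7 to 96.6 CPM in CM libraries and 17.1 to 67.6 CPM in untreated libraries. Of 7 tested, 1 was called, Thy1 (lower). Neutrophil markers summed to 457 to 544 CPM in CM libraries and 350 to 492 CPM in untreated libraries. Of 8 tested, 1 was higher (Retnlg) and 1 lower (Camp). Dendritic cell markers summed to 5.31 to 8.83 CPM in CM libraries and 9.61 to 15.97 CPM in untreated libraries. Of 6 tested, 3 were lower (Dpp4, Clec9a and Flt3). Red cell genes summed to 0.333 to 0.403 CPM in CM libraries and 0.232 to 0.331 CPM in untreated libraries, and lymphocyte genes to 2.14 to 3.29 CPM in CM libraries and 2.70 to 4.196 CPM in untreated libraries. Over all tested genes 12.6% were called higher and 15.2% lower. The part of these other cells in the results was not tested. Near-identical copies, mostly processed pseudogenes, were annotated for 11 of the 37 genes, with 103 for Gapdh alone, and their summed counts reached at most 1.85% of the parent gene. Reads that fit a copy equally well may be missing from these genes, and 16 of the 37 share exonic bases with another gene, Pgls the largest part (20.6%, with Fam129c).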

How the data were processed

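Messenger RNA was sequenced from 6 wells of mouse bone marrow-derived macrophages, enriched with oligo(dT) beads per the labels' protocols. The authors deposited 1 table of raw counts per gene and library, made by aligning reads to GRCm38 with HISAT2 and counting with featureCounts, per the submitters' processing notes. Their versions, the strand setting and the handling of multiply mapped reads are not stated there, so counts of overlapping genes and of near-identical copies are uncertain. Groups came from the sample titles. The gene list was given, and it and the further lists were chosen with earlier results of these data known.

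Symbols came from GENCODE M21 by identifier (55154 of 55421 matched), and the 38 rows used have the same start and end there. 0 rows named no gene. Genes were kept by edgeR's filterByExpr, scaled by TMM and compared by group alone by its quasi-likelihood test in R 4.3.3 with edgeR 4.0.16 and limma 3.58.1, with Benjamini-Hochberg adjustment over all 13853 tested genes and a threshold of 0.05. Adjusted p-values of genes are from it where no other test is named. Log2 fold changes are CM minus untreated, and the standard error (SE) is the fold change over the root of F. Gene levels are CPM with TMM factors, divided by the deposited gene length where levels of different genes are compared. Sums over marker lists are CPM of the library total without these factors. Isozyme shares were compared by exact permutation over wells. Copies were searched with blastn among GENCODE transcripts (at least 95% identity over 300 bases).

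Deviations from the group means, over the tested genes, correlated at 0.328, 0.161 and 0.309 between wells of the same replicate number and at -0.289 to 0.011 between others. The deviations of a group cancel for each gene, so the values between others are partly set by the positive ones. The number was therefore taken as a pairing that the data show and the labels do not explain. The main fit does not use it, and it enters as a block in an alternative setting only. Blocked values are given where they change a call. The libraries of a group differed by more than sampling noise. The fit was tested on simulated data.

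By the rule for named genes, values of single libraries are given for genes past the threshold with at least 1.5-fold change. They are also given for the most abundant isozyme of each family. From each further list the 3 genes with the smallest p past the threshold are named. Of the genes that overlap a listed one, only Csnk1d and Fam129c are named. Values of single libraries of other genes, and the genes Bsg, Pdk4, Slc16a7, Lyz2, Cldn4, Esrp1 and Nkx2-1, were added after their values were seen. Alternatives were RLE scaling, no scaling, DESeq2 1.42.0, limma-voom, 2 other filters, protein-coding genes only, the replicate block, thinning to the smallest total count, and leaving out libraries, and for isozyme shares also CPM not divided by gene length and the counts of named copies added.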

Additional observations from a re-analysis of the deposited data

How the results depend on the processing

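Of the 19 called genes, 15 kept their call and direction in each of the 16 alternatives (highest adjusted p 0.0416), 13 of them higher in CM wells. The 4 lost at least once were Pfkm, Ldhb, Pgls and Tkt. With the replicate block 5023 genes changed, 17 of the 37 genes were higher and 6 lower, and this block changed no call among the 37 other than those given above. With 1 library fewer, between 2725 and 3654 genes passed, the 37 held 13 to 17 higher and 2 to 5 lower genes with a median of 0.057 to 0.23, and 15 to 18 isozyme shares did not overlap. Without division by gene length 8 of the 18 shares moved by more than the spread between wells, with no change of sign. No called gene turned direction. Without scaling beyond the total count Eno3 (0.024), G6pdx (0.0092) and Rpe (0.013) changed sign, and without both libraries numbered 3 Rpe did (0.0049). Without 1 library the log2 fold change ran from -0.38 to 0.17 for Aldoc, -0.13 to 0.11 for Eno3, -0.023 to 0.028 for Rpia, -0.018 to 0.041 for Taldo1, -0.010 to 0.12 for Hk2, -0.015 to 0.057 for Pfkp, -0.70 to 0.012 for Slc2a6, -0.098 to 0.013 for G6pdx and -0.083 to 0.0011 for Rpe. None of these passed the threshold in the main fit, and the cause was not tested. Without both libraries numbered 3, Slc2a3 (adjusted p = 0.0230), Slc2a6 (0.00113), Hk1 (0.00793, and 0.00793 to 0.937 over the alternatives), Aldoa (0.00576) and Pgd (0.00679) were called. At 3 counts, the floor for a gene with 0 counts was 0.0999 to 0.105 CPM in CM libraries and 0.116 to 0.124 CPM in untreated libraries, for counting error only.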
